A study of Mus musculus with 6 samples.

Results

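The 36 genes described here encode aminoacyl-tRNA synthetases, the enzymes that join each amino acid to its transfer RNA. They were chosen by symbol from the GENCODE M21 annotation, 20 for cytosolic enzymes and 16 for mitochondrial ones, whose symbols end in 2, out of 55536 Ensembl genes listed per library. All 36 were found, and all 36 passed the filter on low values described further on. RNA was sequenced in 6 libraries of embryonic stem cells from mice of strain C57BL/6. The WT group held 3 libraries of genotype wild type, and the Max-KO group held 3 of genotype Max-/-. The labels name no treatment, clone, medium or age. They do not state that libraries within a group were cultured separately, so the spread behind each p-value may be technical.

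Most synthetase genes exist as a nuclear pair, with 1 gene for the enzyme of the cytosol and another for the enzyme of the mitochondrion, which translates its own small set of messenger RNAs. Gars and Kars each make both forms from a single gene, and mitochondria charge glutamine through an amidotransferase, so Qars has no mitochondrial counterpart. Several cytosolic enzymes are held together in a multisynthetase complex by scaffold proteins. Cytosolic synthetase genes are known targets of ATF4, the transcription factor of the amino acid starvation response, and MAX is the partner with which MYC proteins bind the DNA motif called the E-box.

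Levels are given in FPKM, read fragments scaled by transcript length and by library depth. The steps between low values put 1 FPKM of a 2 kb transcript at an estimated 36.6 to 49.7 fragments, depending on the library. The pluripotency genes Pou5f1, Nanog, Sox2, Esrrb and Zfp42 summed to 1537 ± 38.0 (SD, n = 3) FPKM in WT and to 1858 ± 50.9 FPKM in Max-KO, and 3 of 5 were called higher in Max-KO (43.0% of all genes tested were). Germ cell genes stood apart, since Dazl, Ddx4, Sycp3, Stra8 and Mael together went from 30.2 ± 3.19 to 859 ± 19.4 FPKM, and 5 of 5 were called higher. Trophoblast markers summed to 30.9 ± 1.17 FPKM in WT, most of it Krt18, and to 52.0 ± 8.73 in Max-KO. Of those tested, 5 of 5 were called higher, but Elf5, Krt7 and Gata3 reached the filter through Max-KO alone. Cdx2, under the filter, was at 0.02 to 0.40 FPKM in the 6 libraries. The summed levels of primitive endoderm markers were 1.10 ± 0.323 and 5.68 ± 2.04 FPKM (3 of 6 were tested, each reaching the filter through Max-KO alone), and those of feeder fibroblast markers 8.16 ± 0.192 and 9.36 ± 1.20 FPKM (2 of 7 were tested and 1 was called higher). Because these are bulk samples, fewer cells of a type and less RNA per cell cannot be told apart, and the part of these marker genes' cells in the results below was not tested. Max itself was 41.6, 50.2 and 42.3 FPKM in WT and 35.8, 39.6 and 43.4 FPKM in Max-KO, with overlapping groups (limma adjusted p = 0.168), and a value per gene cannot show a deleted exon, so it checks no label.

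The cytosolic synthetase genes were lower in Max-KO throughout. Their summed level averaged 2103 ± 63.2 FPKM over the WT libraries and 1229 ± 19.5 FPKM over the Max-KO libraries (SD, n = 3), which is 58.4% of the WT mean. All 20 were called lower at an adjusted p under 0.05, against 23.2% of the 14661 genes tested, and in 20 of 20 the groups did not overlap, against 25.7% of all genes on the lower side. The call came from limma on log2(FPKM + 1), with Benjamini-Hochberg adjustment over every gene whose mean reached 1 FPKM in either group. Their median log2 difference, Max-KO minus WT, was −0.74, while the median of all genes tested was 0.21. Relative to all genes the cytosolic median was thus −0.95 with the values as listed. The median of all genes moved with the scaling, to 0.04 under median-ratio scaling, 0.43 after rescaling each library to a common sum (TPM) and −0.02 under quantile normalization. The cytosolic median was −0.94, −0.52 and −0.71 under these 3 scalings. Under TPM rescaling 17 of the 20 were still called lower, against 2298 of the 14661 genes tested. Dars, Hars and Wars were not called there (0.0009, −0.02 and −0.06, with limma adjusted p of 0.988, 0.811 and 0.499).

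**Figure D1:**
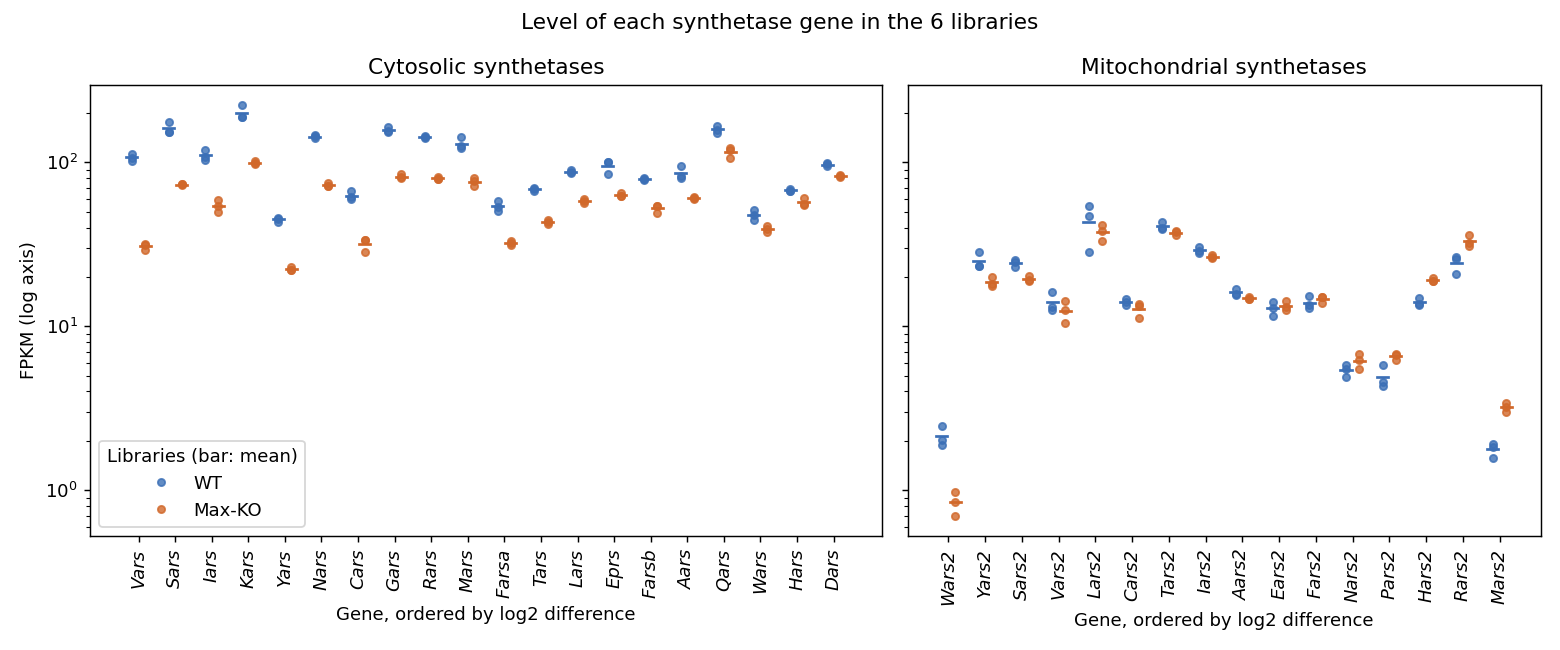
Level of each of the 36 synthetase genes in FPKM on a log axis, with 1 point per library and a bar for the group mean (3 WT and 3 Max-KO libraries); genes are ordered by log2 difference within each panel. In all 20 cytosolic genes the Max-KO points lie below the WT points, whereas mitochondrial genes lie lower on the axis and most change little.

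The falls differed in size. Vars, which charges valine (ENSMUSG00000007029; GRCm38 chromosome 17, 35000987 to 35016322, plus strand), was listed at 107, 102 and 113 FPKM in WT and at 29.0, 31.5 and 31.8 FPKM in Max-KO. Its Max-KO mean was 28.7% of the WT mean, a log2 difference of −1.77 ± 0.06 (SE; limma adjusted p = 2.96e-06). The 95% interval of this difference, −1.92 to −1.62, did not overlap that of the next gene in order, Sars, at −1.28 to −0.97.

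Sars, the seryl-tRNA synthetase (ENSMUSG00000068739; chromosome 3, 108424865 to 108445209, minus strand), was at 153, 153 and 177 FPKM in WT and at 73.3, 72.6 and 73.6 FPKM in Max-KO. WT replicate 3 was the highest of the 6, and the Max-KO libraries lay close to each other. The difference was −1.12 ± 0.07 (limma adjusted p = 1.48e-05). Iars, which charges isoleucine (ENSMUSG00000037851; chromosome 13, 49682100 to 49734267, plus strand), was at 104, 109 and 118 FPKM in WT and at 50.03, 58.8 and 54.0 FPKM in Max-KO, a difference of −1.01 ± 0.08 (limma adjusted p = 4.52e-05). These 3 genes were the cytosolic members that fell at least 2-fold on the log2(FPKM + 1) scale, a size at which 4.86% of all genes were called lower. This number was 5 with a pseudocount of 0.1, 9 under median-ratio scaling, 1 after TPM rescaling and 2 without WT replicate 3 or Max-KO replicate 1, so the 2-fold count depends on the setting.

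Kars, Yars and Nars came next, close to one another. Kars charges lysine for both compartments (chromosome 8, 111993443 to 112011323, minus strand) and was the most abundant synthetase gene in WT, at 189.7, 189.8 and 223 FPKM, against 98.4, 99.1 and 102 FPKM in Max-KO. Yars, the tyrosyl enzyme (chromosome 4, 129189760 to 129219607, plus strand), was at 45.2, 43.5 and 46.0 FPKM in WT and at 21.9, 23.1 and 22.2 FPKM in Max-KO. Nars, the asparaginyl enzyme, was at 145, 146 and 140.0 FPKM in WT and at 75.0, 71.5 and 72.0 FPKM in Max-KO. Their log2 differences were −0.997 ± 0.07, −0.97 ± 0.06 and −0.97 ± 0.05 (SE), with 95% intervals that overlapped. Gars, which charges glycine for both compartments, was at 154, 154 and 164 FPKM in WT and at 84.7, 81.4 and 79.8 FPKM in Max-KO, so both genes that serve cytosol and mitochondrion from 1 locus fell with the cytosolic set (−0.93 ± 0.05 for Gars).

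At the other end were Qars, Wars, Hars and Dars. Qars, the glutaminyl enzyme (chromosome 9, 108507706 to 108515941, plus strand), was at 152, 168 and 158 FPKM in WT and at 107, 123 and 119 FPKM in Max-KO, where it was the most abundant synthetase gene. Its difference was −0.45 ± 0.07 (limma adjusted p = 9.91e-04). Hars, the histidyl enzyme, was at 66.9, 66.6 and 69.0 FPKM in WT and at 54.7, 60.4 and 55.7 FPKM in Max-KO (−0.24 ± 0.06, limma adjusted p = 7.44e-03). Dars, the aspartyl enzyme (chromosome 1, 128363707 to 128417368, minus strand), was at 99.0, 97.6 and 94.6 FPKM in WT and at 84.0, 81.5 and 82.7 FPKM in Max-KO (−0.23 ± 0.05, limma adjusted p = 4.01e-03). The groups did not overlap for any of these, and Max-KO means stood at 73.0% of WT for Qars, 84.3% for Hars and 85.2% for Dars. The other 9 cytosolic genes, Aars, Cars, Eprs, Farsa, Farsb, Lars, Mars, Rars and Tars, had Max-KO means of 50.9% to 70.4% of WT, and Wars one of 81.8%.

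Sorting the cytosolic genes by what their enzymes are known for left the falls spread over every subset. The 8 enzymes of the multisynthetase complex, Dars, Eprs, Iars, Kars, Lars, Mars, Qars and Rars, had a median log2 difference of −0.67 (−1.01 to −0.23), and the 12 others one of −0.83 (−1.77 to −0.24). The 9 enzymes with a class I catalytic domain had a median of −0.83, and the 10 with a class II domain one of −0.69, Eprs holding a domain of each class. A set of 12 genes often named as targets of the amino acid response, Aars, Cars, Eprs, Gars, Iars, Lars, Mars, Nars, Sars, Tars, Wars and Yars, had a median of −0.85, and the 8 others one of −0.65. The ranges of these subsets overlapped, and no test was made between them. The chains of the phenylalanyl enzyme, which works as a tetramer of alpha (Farsa) and beta (Farsb) subunits, were both lower, with Max-KO means at 59.7% and 66.8% of WT.

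RefSeq promoter sequences, taken from 250 bases before to 50 bases after a transcript start on GRCm38.p6, were found for 27 of the 36 genes, 13 cytosolic and 14 mitochondrial. They were searched on both strands for the E-box CACGTG and for TGATGNAA, a core of the element through which ATF4 acts, in which N is any base. The E-box stood in 4 of 13 cytosolic genes (Aars, Farsb, Iars and Tars) and 1 of 14 mitochondrial genes (Ears2), against 8.09% of all 27025 genes with a window. TGATGNAA stood in 5 of 13 cytosolic genes (Aars, Gars, Iars, Tars and Yars) and 0 of 14 mitochondrial genes, against 4.51% of all genes with a window. Aars, Iars and Tars held both motifs, as did 0.201% of all 32851 windows. The last 30 bases of the windows of Dars, Kars, Sars and Sars2 were not in a GENCODE transcript of the gene, so these 4 windows may belong to another start than the one used in the tables. The cytosolic genes with a placed window numbered 10 and the mitochondrial ones 13, and all matches lay in these. The windows of 6 genes are printed below 5′ to 3′ on the gene's strand, with motif matches in capitals: 3 with both motifs, Mars and Farsa, which fell and hold neither, and Ears2, which holds an E-box and was not called.
Iars (chr13:49681880-49682179, plus strand): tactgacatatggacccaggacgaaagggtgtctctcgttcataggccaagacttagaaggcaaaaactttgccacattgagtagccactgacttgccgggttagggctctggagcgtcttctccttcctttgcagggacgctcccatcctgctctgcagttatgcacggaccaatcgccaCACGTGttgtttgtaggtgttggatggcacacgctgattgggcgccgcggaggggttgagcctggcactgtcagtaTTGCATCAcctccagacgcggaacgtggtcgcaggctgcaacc
Tars (chr15:11399609-11399908, minus strand): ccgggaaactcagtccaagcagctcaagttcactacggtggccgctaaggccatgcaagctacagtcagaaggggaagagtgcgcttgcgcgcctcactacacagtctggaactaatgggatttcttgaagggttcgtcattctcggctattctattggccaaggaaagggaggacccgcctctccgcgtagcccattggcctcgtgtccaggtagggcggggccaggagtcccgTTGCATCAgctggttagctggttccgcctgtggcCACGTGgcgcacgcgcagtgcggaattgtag
Aars (chr8:111033592-111033891, plus strand): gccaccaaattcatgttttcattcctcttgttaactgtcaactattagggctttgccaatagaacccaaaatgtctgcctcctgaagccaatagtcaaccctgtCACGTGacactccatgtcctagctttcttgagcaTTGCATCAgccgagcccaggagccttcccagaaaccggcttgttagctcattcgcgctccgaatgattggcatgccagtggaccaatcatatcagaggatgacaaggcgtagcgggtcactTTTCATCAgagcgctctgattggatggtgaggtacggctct
Mars (chr10:127311737-127312036, minus strand): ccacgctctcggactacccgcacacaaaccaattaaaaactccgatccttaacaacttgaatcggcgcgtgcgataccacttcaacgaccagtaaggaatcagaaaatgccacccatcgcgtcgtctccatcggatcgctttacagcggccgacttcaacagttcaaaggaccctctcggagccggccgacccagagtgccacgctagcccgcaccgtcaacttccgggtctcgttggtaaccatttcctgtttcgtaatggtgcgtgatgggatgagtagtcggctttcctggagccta
Farsa (chr8:84856736-84857035, plus strand): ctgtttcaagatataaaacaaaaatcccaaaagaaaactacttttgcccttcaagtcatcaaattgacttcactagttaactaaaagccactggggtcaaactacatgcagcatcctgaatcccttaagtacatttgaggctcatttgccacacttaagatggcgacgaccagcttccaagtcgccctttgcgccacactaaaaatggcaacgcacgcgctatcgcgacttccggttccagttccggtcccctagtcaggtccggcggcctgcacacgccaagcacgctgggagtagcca
Ears2 (chr7:122067037-122067336, minus strand): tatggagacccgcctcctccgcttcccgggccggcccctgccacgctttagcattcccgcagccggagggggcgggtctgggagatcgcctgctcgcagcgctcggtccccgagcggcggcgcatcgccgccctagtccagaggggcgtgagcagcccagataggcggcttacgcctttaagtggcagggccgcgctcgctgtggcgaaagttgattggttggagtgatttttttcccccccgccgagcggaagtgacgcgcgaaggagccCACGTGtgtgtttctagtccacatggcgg
In these lines the capitals CACGTG mark the E-box, and TTGCATCA and TTTCATCA are TGATGNAA read on the other strand. Counted from the transcript start, the E-box of Iars begins at −69 and its other motif at 8. In Tars they begin at 20 and −15, and in Aars the E-box begins at −146 and the other motif at −112 and again at 10. The log2 differences of the 3 genes with both motifs were −1.01 for Iars, −0.65 for Tars and −0.49 for Aars. Gars and Yars, with TGATGNAA alone, were at −0.93 and −0.97, and Farsb, with the E-box alone, at −0.57. The cytosolic genes with a placed window and neither motif were Mars (−0.76), Farsa (−0.72), Eprs (−0.58) and Qars (−0.45). A link between the motifs and the falls was not tested. A match is a stretch of letters in a window, and binding was not measured.

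**Figure D2:**
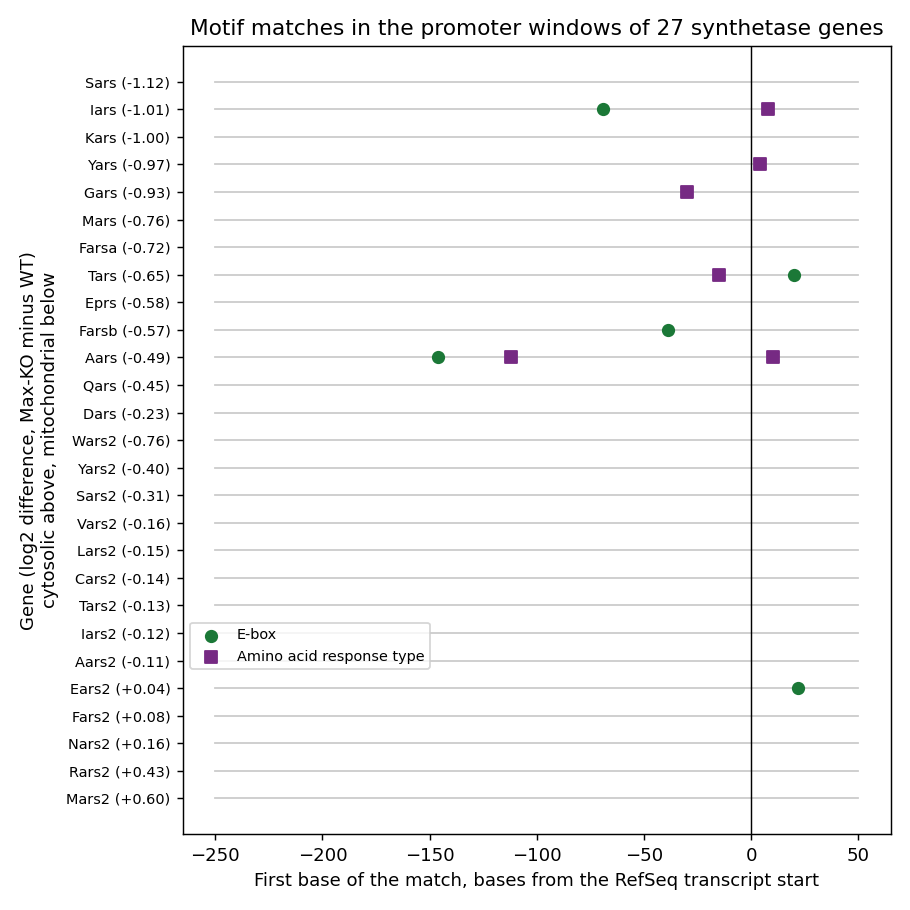
Position of motif matches, in bases from the RefSeq transcript start, in the promoter windows of the 27 synthetase genes with a sequence (grey lines, 250 bases before to 50 after the start); circles mark the E-box and squares TGATGNAA, and the log2 difference stands beside each gene. Matches to TGATGNAA lie in 5 cytosolic genes and in 0 mitochondrial genes. The cytosolic genes with a placed window and no match are Mars, Farsa, Eprs and Qars, at −0.76, −0.72, −0.58 and −0.45.

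The mitochondrial synthetase genes changed in both directions. Their sum was 286 ± 10.7 (SD, n = 3) FPKM in WT and 276 ± 6.97 FPKM in Max-KO, 96.6% of the WT mean. Of the 16 genes, 3 were called lower (23.2% of all genes were) and 4 higher (43.0% of all genes were), and 9 were not called (limma). The groups did not overlap in 6 genes on the lower side (25.7% of all genes) and in 4 on the higher side (46.3% of all genes). Their median log2 difference was −0.11, which is −0.32 relative to all genes. With TPM rescaling the sign of their median turned, to 0.11, while the median of all genes rose to 0.43. There 1 gene was lower and 7 higher, against 2298 and 7999 of the 14661 genes tested. Median-ratio scaling gave 7 lower and 2 higher (median −0.30), against 4631 and 4890 of all genes. Quantile normalization gave 8 lower and 2 higher (median −0.21), against 4831 and 4225 of all genes. In WT the mitochondrial means ran from 1.78 to 43.2 FPKM, all below the lowest cytosolic mean, 44.9 FPKM for Yars. In Max-KO the 2 ranges overlapped, 0.84 to 37.5 FPKM for mitochondrial and 22.4 to 116 FPKM for cytosolic genes.

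Wars2, the mitochondrial tryptophanyl enzyme, fell the most of these (chromosome 3, 99141068 to 99239186, plus strand). It was listed at 2.48, 1.88 and 2.02 FPKM in WT and at 0.85, 0.70 and 0.98 FPKM in Max-KO. The log2 difference was −0.76 ± 0.13 (limma adjusted p = 1.64e-03), and the Max-KO mean was 39.7% of that of WT. With a Max-KO mean under 1 FPKM, Wars2 reached the filter through WT alone. With no filter it was still called lower (limma adjusted p = 3.59e-03). Yars2, the tyrosyl enzyme, was at 23.2, 23.4 and 28.5 FPKM in WT and at 20, 17.7 and 18.2 FPKM in Max-KO (−0.40 ± 0.10, limma adjusted p = 8.73e-03). Sars2, the seryl enzyme, was at 24.6, 22.8 and 25.3 FPKM in WT and at 19.1, 20.3 and 18.8 FPKM in Max-KO (−0.31 ± 0.07, limma adjusted p = 5.94e-03). The groups did not overlap in these 3 genes. The calls of Yars2 and Sars2 were lost after TPM rescaling (−0.18 and −0.09, adjusted p = 0.113 and 0.286), and that of Wars2 was kept in each alternative tried.

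The genes called higher were Mars2, Rars2, Hars2 and Pars2. Mars2, the methionyl enzyme (chromosome 1, 55237177 to 55248470, plus strand), was at 1.92, 1.84 and 1.57 FPKM in WT and at 3.01, 3.40 and 3.23 FPKM in Max-KO, a log2 difference of 0.60 ± 0.11 (limma adjusted p = 2.12e-03) and 181% of the WT mean. Rars2, the arginyl enzyme (chromosome 4, 34614957 to 34660167, plus strand), was at 26.6, 25.7 and 20.9 FPKM in WT and at 32.2, 36.1 and 30.8 FPKM in Max-KO (0.43 ± 0.11, limma adjusted p = 0.0100). Hars2, the histidyl enzyme, was at 14.97, 13.4 and 13.7 FPKM in WT and at 19.0, 18.8 and 19.6 FPKM in Max-KO (0.42 ± 0.07, limma adjusted p = 1.45e-03). The groups did not overlap, and only the call of Hars2 among the 4 held in each alternative tried. Under median-ratio scaling Rars2 and Pars2 were not called (adjusted p = 0.0712 and 0.171), and under quantile normalization Mars2 and Pars2 were not (adjusted p = 0.223 and 0.981).

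Pars2, the prolyl enzyme, was at 5.81, 4.35 and 4.59 FPKM in WT and at 6.26, 6.72 and 6.75 FPKM in Max-KO (0.36 ± 0.12, limma adjusted p = 0.0269). Its call was also lost without WT replicate 2 or 3 (adjusted p = 0.0854 and 0.0668) and without Max-KO replicate 2 or 3 (0.0737 and 0.0709). Lars2, the leucyl enzyme, had the largest standard error of the 36 on the log2 scale and was at 28.3, 47.2 and 54.0 FPKM in WT and at 33.0, 41.2 and 38.3 FPKM in Max-KO. Its groups overlapped (−0.15 ± 0.24, limma adjusted p = 0.590), and without WT replicate 1, the lowest of the 6 libraries, it was called lower (−0.43, adjusted p = 0.0189). The other 8 genes, Aars2, Cars2, Ears2, Fars2, Iars2, Nars2, Tars2 and Vars2, had Max-KO means of 88.9% to 114% of WT, and a miss of the threshold does not show that they were equal.

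**Figure D3:**
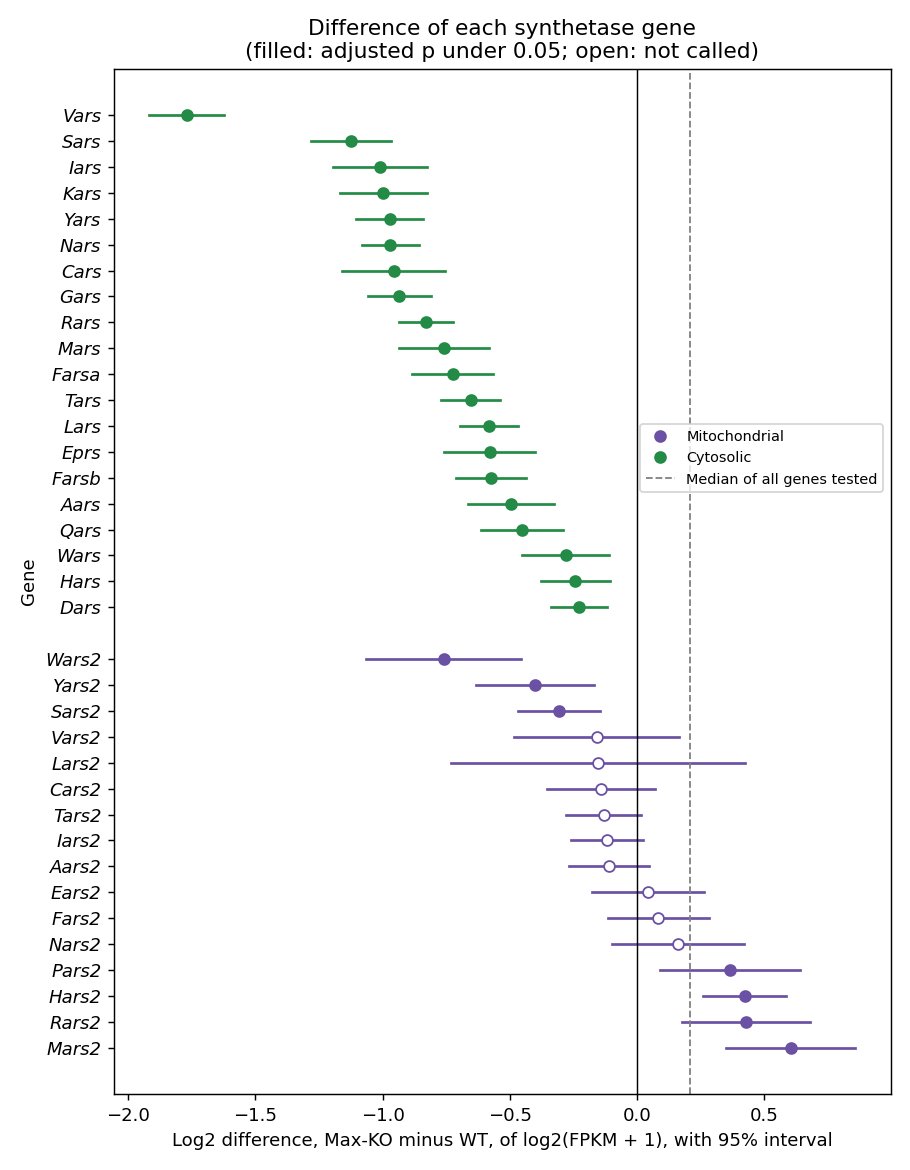
Max-KO minus WT difference of each synthetase gene in log2(FPKM + 1), with its 95% interval from limma; filled points passed an adjusted p under 0.05, and the dashed line is the median of all genes tested, 0.21. The 20 cytosolic genes lie between −1.77 and −0.23, and the 16 mitochondrial genes between −0.76 and 0.60.

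Multiplying a library by 1 factor leaves the ratio of 2 genes within it as it was, apart from the pseudocount, whereas quantile normalization changes it. The summed cytosolic level was 7.47, 7.28 and 7.33 times the summed mitochondrial level in WT, and 4.53, 4.41 and 4.40 times in Max-KO. The 36 genes formed 17 pairs that charge the same amino acid, with Eprs set against both Ears2 and Pars2, and Farsa and Farsb against Fars2. The log2 ratio of cytosolic to mitochondrial level was lower in Max-KO in 16 of 17 pairs, and in 15 of them the groups did not overlap. With 3 libraries against 3, an exact permutation test cannot go below p = 0.10 (2-sided), so no pair could pass 0.05, and the pairs without overlap had this p (0.106 after Benjamini-Hochberg adjustment over the 17).

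The valine pair moved the most. Vars was 7.68 times the level of Vars2 in WT and 2.48 times in Max-KO, and the log2 ratio went from 2.93, 2.58 and 3.08 in the WT libraries to 1.39, 1.256 and 1.11 in the Max-KO libraries. Methionine, arginine and asparagine followed. Mars went from 73.3 to 23.8 times the level of Mars2, Rars from 5.85 to 2.42 times that of Rars2, and Nars from 26.6 to 11.8 times that of Nars2. In the methionine, arginine, histidine and proline pairs the cytosolic gene fell while the mitochondrial gene rose. The calls of Mars2, Rars2 and Pars2 were lost in the alternatives given above, and that of Hars after TPM rescaling.

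Tryptophan was the exception. Wars went from 22.5 to 46.5 times the level of Wars2, and the log2 ratio was 3.82, 3.97 and 4.12 in WT and 4.51, 4.56 and 4.28 in Max-KO, without overlap. Here the mitochondrial gene fell more than the cytosolic one. Leucine was the pair with overlapping groups, its log2 ratio of Lars to Lars2 being 1.63, 0.85 and 0.69 in WT and 0.80, 0.52 and 0.56 in Max-KO (exact permutation p = 0.20). For threonine and tyrosine the ratio came near 1, with Tars going from 1.68 to 1.16 times the level of Tars2 and Yars from 1.79 to 1.20 times that of Yars2.

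**Figure D4:**
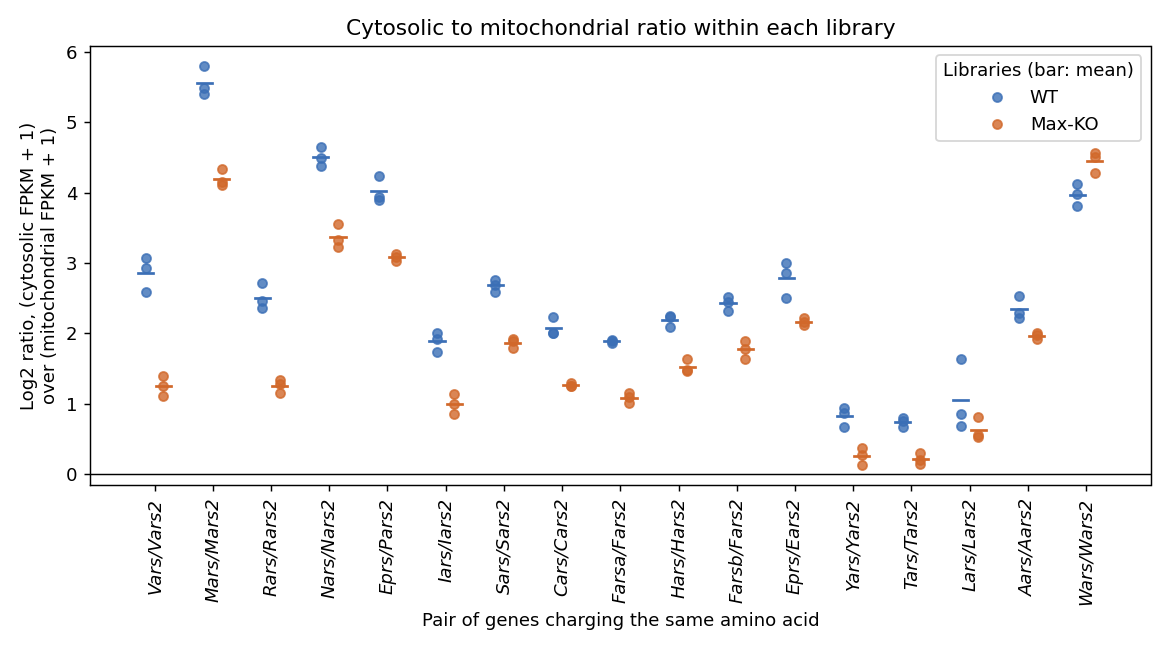
Log2 ratio of the cytosolic to the mitochondrial gene, each as FPKM + 1, in each of the 6 libraries for the 17 pairs that charge the same amino acid; points are libraries and bars group means. The Max-KO points lie below the WT points in 15 pairs, overlap them for Lars and Lars2, and lie above them for Wars and Wars2.

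Some members share sequence with a neighbour, and the sources used here do not say whether the libraries kept strand. Hars and Hars2 lie back to back on opposite strands and share 195 exon bases, so fragments from that stretch could be given to either gene, and the part of this in their differences was not tested. Iars2 shares 2034 exon bases with Rab3gap2 on the opposite strand (16.7 FPKM in WT and 15.3 in Max-KO), and Aars shares 1326 exon bases with Exosc6 on its own strand. Exosc6 was listed at 4.79, 2.88 and 0.01 FPKM in WT and at 0 in the 3 Max-KO libraries, so its reads and those of Aars are uncertain. Mars shares 68 exon bases with Ddit3 (11.3 and 9.74 FPKM). The transcript of Iars is 96.0% identical over 1656 bases to that of the pseudogene Gm4849, which was near 0 in both groups (0.03 and 0.037 FPKM). Shorter stretches resembled genes more abundant than the member. Cars2 matched Rpn2 (95.3% over 171 bases, 111 FPKM in WT and 139 in Max-KO). Tars2 matched Ftsj3 (95.8% over 118 bases, 164 and 120 FPKM), and Farsa matched Cse1l (95.4% over 131 bases, 98.9 and 103 FPKM). The part of these stretches in the differences and ratios was not tested.

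The scaffold proteins of the multisynthetase complex fell with the enzymes they hold, 3 of 3 (limma; 23.2% of all genes were lower). Aimp1 averaged 123 ± 3.13 FPKM over the WT libraries and 80.3 ± 1.21 FPKM over the Max-KO libraries (SD, n = 3), a difference of −0.61 ± 0.05 on the log2 scale (limma adjusted p = 4.52e-05). Aimp2 went from 70.5 ± 4.70 to 38.8 ± 1.73 FPKM (−0.84 ± 0.07), and Eef1e1, the third scaffold protein, from 47.8 ± 5.39 to 23.8 ± 2.14 FPKM (−0.98 ± 0.10). The median of the 3 stayed below 0 under each scaling tried.

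Genes that make and finish the transfer RNA moved less evenly. Of 24 genes for RNA polymerase III, which transcribes tRNA genes, and its factors, 10 were lower and 8 higher (limma; 23.2% and 43.0% of all genes were), with a median log2 difference of −0.10. After TPM rescaling 6 were lower and 10 higher (median 0.12), while the median of all genes rose to 0.43. Median-ratio scaling gave 13 lower and 3 higher, and quantile normalization gave 13 lower and 2 higher. Gtf3a, which is the 5S rRNA factor, fell from 39.2 ± 3.11 to 23.2 ± 0.824 FPKM, and Polr1c, a subunit shared with polymerase I, from 185 ± 34.4 to 112 ± 10.8 (SD, n = 3). Higher were Polr3b (19.9 to 28.8 FPKM), Brf1 (8.60 to 12.4) and Gtf3c2 (39.6 to 53.1). In tRNA processing and export, 14 of 23 genes were lower and 0 higher (23.2% and 43.0% of all genes), with a median of −0.27 (−0.05 after TPM rescaling, where 9 were lower and 2 higher). Rpp40 and Rpp25l, proteins of the RNase P family that trims precursors, went from 19.5 to 8.82 and from 38.3 to 17.97 FPKM.

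Among 36 tRNA modification genes 19 were lower and 3 higher (limma; 23.2% and 43.0% of all genes were), with a median of −0.26. After TPM rescaling 12 were lower and 4 higher, and the median was −0.0434. Qtrt1, which places queuosine, fell from 36.4 ± 1.08 to 14.7 ± 1.19 FPKM, 40.3% of the WT mean (limma adjusted p = 1.55e-05). Ctu1, which thiolates the wobble base, went from 7.30 to 2.93 FPKM, and the pseudouridine synthase Pus7 from 24.8 to 12.4 FPKM. The genes that rose were Thumpd1 (45.1 to 65.1 FPKM), Adat2 (8.83 to 11.2) and Trmt6 (31.4 to 36.4), and 1 gene was called higher without WT replicate 1.

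Of 22 mitochondrial translation factors, 8 were lower and 2 higher (limma, against 23.2% and 43.0% of all genes). Their median was −0.07, and it was 0.15 after TPM rescaling, where the median of all genes was 0.43. C1qbp, a matrix protein needed for mitochondrial translation, was at 457 ± 25.3 FPKM in WT and 185 ± 0.930 in Max-KO, a fall to 40.5% (limma adjusted p = 4.61e-06). Mrrf, the ribosome recycling factor, fell from 12.6 to 6.35 FPKM, and Elac2, which trims the 3′ ends of tRNA precursors, from 73.2 to 44.3 FPKM. Elac2 and Trnt1 also stood in the tRNA processing and export list, so the lower call of Elac2 was counted in both lists. The genes that rose were Gatb, a subunit of the amidotransferase that makes mitochondrial glutaminyl-tRNA (9.88 ± 3.34 to 16.8 ± 2.36 FPKM), and Mtif2, an initiation factor (21.9 to 26.0 FPKM). This count of higher genes ran from 0 to 3 when 1 library was left out: it was 0 without WT replicate 3 or Max-KO replicate 1, and 1 without WT replicate 2 or Max-KO replicate 3.

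In the amino acid response list, which holds regulators and targets other than synthetases, 10 of 11 tested genes were lower and 0 higher (limma; 23.2% and 43.0% of all genes were). Its median was −1.24, against −0.85 for the 12 synthetase genes named above as targets of that response. Phgdh and Nupr1 fell from 113 ± 10.1 to 11.6 ± 2.21 FPKM and from 22.5 ± 2.39 to 2.38 ± 0.420 FPKM, and Ddit4 from 119 ± 8.05 to 22.3 ± 2.19 FPKM (SD, n = 3). Atf4, named here after its values were seen, went from 208 ± 2.79 to 89.1 ± 3.62 FPKM (log2 difference −1.21 ± 0.05 SE, adjusted p = 4.21e-06). Ddit3 was not called (11.3 and 9.74 FPKM, adjusted p = 0.0829), and Slc7a11, under 1 FPKM in both groups, was not tested.

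**Figure D5:**
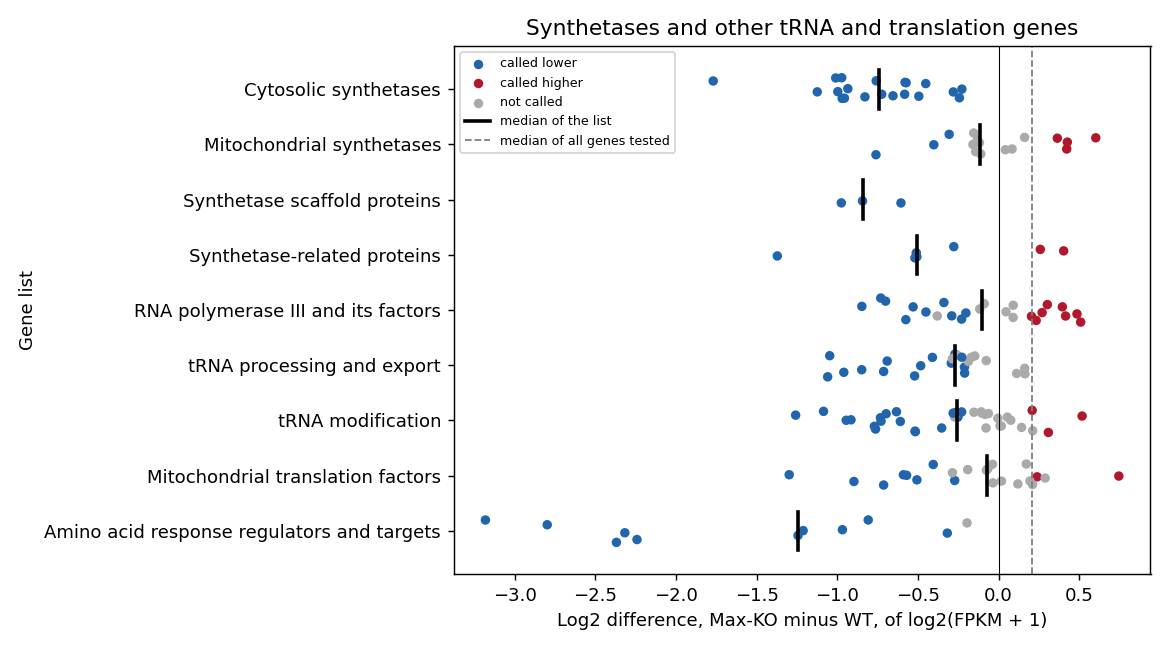
Max-KO minus WT difference in log2(FPKM + 1) of each tested gene in the 2 synthetase groups and 7 lists of tRNA, translation and amino acid response genes; colours give the limma call, black bars list medians and the dashed line the median of all genes tested (0.21). The cytosolic synthetases and the 3 scaffold proteins lie wholly below 0, and the mitochondrial synthetases lie on both sides.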

How the data were processed

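Gene-level RNA values from 6 libraries (3 WT, 3 Max-KO) were used, 1 deposited table per library. The deposited values are FPKM made by the authors. The tables carry no header, and this unit rests on the description of the tables and on column sums that differ between libraries. The submitters' processing notes name HISAT2 2.1.0, FastQC, DESeq 1.26.0, RSEM and the build GRCm38.p6, without role or order. Depth was estimated from the steps between low FPKM of genes with 1 transcript. Between 76.4% and 79.4% of those values lay within 0.15 of a whole multiple of the step chosen to fit them.

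Assembled loci (1153 of 56689 identifiers) were left out, and symbols came from GENCODE M21. The fit used log2(FPKM + 1) of every gene whose mean reached 1 FPKM in either group. It was made in R 4.3.3 by limma 3.58.1, with moderation set to trend and robust (2-sided, adjusted p under 0.05). Differences on this scale understate changes of low genes. Ratios of pairs used an exact permutation test. Shared sequence was searched with BLAST+ 2.17.0 (95% identity over at least 100 bases). Other steps used numpy 2.4.6, pandas 2.3.3 and Python 3.11.15.

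The members and lists were chosen with earlier results of these data known. Values in every library were given for the 6 cytosolic genes that differed most and the 2 that differed least, the 3 lowest and 3 highest mitochondrial genes, and Gars, Kars and Qars. Up to 3 called genes per direction were named in each other list; some genes this rule names are not reported here. Pars2, Lars2 and Atf4 were added after their values were seen. Alternatives were another pseudocount (0.1), no filter, 3 other scalings, limma without trend or robust moderation, a replicate block and leaving out each library.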

Additional observations from a re-analysis of the deposited data

How the results depend on the processing

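Of the 20 cytosolic synthetases, 20 were called lower in each alternative but TPM rescaling, where 17 were; there Dars changed sign (0.0009). Their median was −0.94 under median-ratio scaling, −0.52 after TPM rescaling, −0.71 under quantile normalization, −0.69 without Gars and Kars, and −0.77 to −0.68 when 1 library was left out. The mitochondrial median was −0.30, 0.11 and −0.21 under the 3 scalings and −0.10 to −0.0413 with 1 library left out. Mitochondrial synthetases called lower and higher numbered 7 and 2 under median-ratio scaling, 1 and 7 after TPM rescaling, 8 and 2 under quantile normalization, and 3 to 4 each with 1 library left out. Of all 14661 genes tested, 4631 were lower and 4890 higher under median-ratio scaling. These counts were 2298 and 7999 after TPM rescaling, and 4831 and 4225 under quantile normalization. The gap between the 2 medians was −0.63 as reported and −0.63, −0.62 and −0.50 under the 3 scalings. Pairs with a lower ratio and no overlap numbered 15 to 16 with 1 library left out.

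Counts in the other lists moved by over 1.5 times as follows, the cause not being tested. Under median-ratio scaling 0 synthetase-related proteins, 3 polymerase III genes, 1 tRNA modification gene and 0 mitochondrial translation factors were higher, and 13 of the last were lower. After TPM rescaling 3 synthetase-related, 6 polymerase III, 9 tRNA processing and 12 tRNA modification genes were lower, and 2 tRNA processing genes and 9 mitochondrial translation factors were higher. Under quantile normalization 1 synthetase-related, 2 polymerase III, 1 tRNA modification and 0 mitochondrial translation genes were higher. With no filter 1 mitochondrial translation factor was higher. With 1 library left out, 1 to 3 tRNA modification genes and 0 to 3 mitochondrial translation factors were higher. Same-numbered libraries did not deviate together (correlations of −0.001, 0.016 and 0.086), so the numbers were not taken to pair them. With a replicate block 20 cytosolic genes were lower, 3 mitochondrial genes were lower and 3 higher, the call of Pars2 being lost (0.36, adjusted p = 0.0523). The tables hold no counts, so counting error could not be modelled, which matters most for Wars2 and Mars2.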

Other observations

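Proteins related to synthetases or acting beside them also moved. Of 7 such genes 5 were lower and 2 higher (limma; 23.2% and 43.0% of all genes were), with a median log2 difference of −0.51. Dtd1, a deacylase that removes D-amino acids from tRNA, was at 26.1 ± 1.74 FPKM (SD, n = 3) in WT and at 9.55 ± 1.72 FPKM in Max-KO, a log2 difference of −1.37 ± 0.13 (limma adjusted p = 1.06e-04). Dtd2, an enzyme of the same family, fell from 17.98 to 12.4 FPKM, and Aarsd1, which resembles the editing domain of the alanyl enzyme, from 61.9 to 43.2 FPKM. Tarsl2, a paralog of Tars, fell from 4.74 to 3.01 FPKM, and Yrdc, which acts in making the threonylcarbamoyl modification of tRNA, from 41.2 to 33.7 FPKM. Prorsd1, which resembles the prolyl editing domain, rose from 9.92 ± 0.597 to 13.5 ± 1.19 FPKM (log2 difference 0.40), and Osgep, which acts in the same modification as Yrdc, from 90.7 to 109 FPKM (0.26). Neither rise was called under median-ratio scaling.

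Across genes, those more abundant in WT had lower log2 differences, with a Spearman rho of −0.76 over the 36 members. Within the 20 cytosolic genes it was −0.37 and within the 16 mitochondrial genes −0.34. Genes share libraries and are not independent replicates, the WT level enters both measures, and the pseudocount shrinks the differences of low genes, so these values are a description.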
